A study of Capsicum chinense and Capsicum frutescens with 8 samples.

Results

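Flowers and fruits, the reproductive organs, were compared with leaves and stems, the vegetative organs, in 2 cultivated peppers. The comparison used all 8 small RNA libraries of the series, 4 reproductive and 4 vegetative, and the organ class was taken from the tissue label of each library. The reproductive group held flower buds of mixed size and age and a fruit pool covering 5 to 60 days after anthesis, breaker and mature fruit included. The vegetative group held fully expanded leaf and stem. Each tissue came once from the hot chilli Bhut jolokia, a C. chinense (Capsicum), and once from Acc. 4 of C. frutescens, with both species raised in a glasshouse. Each species is thus 1 genotype, and RNA of 3 biological replicates was pooled before library preparation. A class therefore consisted of 2 tissues in 2 species, and every p-value measures the spread between these libraries and not between plants. Reads of conserved entries were summed by miR number into 1336 families, of which 71 had 10 or more reads in 2 or more libraries and were tested. These 71 families held at least 99.5% of the listed conserved reads of each library.

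Plant miRNAs are short RNAs cut from hairpin precursors that pair with messenger RNAs and lower their output, either by cleavage or by reduced translation. Many old families act on transcription factors that shape organs. miR164 acts on NAC genes that mark organ boundaries, miR396 on growth-regulating factors that keep cells dividing, miR166 on class III HD-ZIP genes, and miR160 and miR167 on auxin response factors. In Solanaceae, a further group with miR482 at its head acts on genes for immune receptors, many of them of the NBS-LRR class. Work in model plants places several of these families in flower and fruit development, which is the background to a comparison of organ classes.

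The sequences below carry the families described next. Each is the 1 sequence printed for an entry in the library named, written 5′ to 3′, with the run shared by every library that lists the entry in capitals. Entries take their names from other plant species, and the lower-case ends differed between libraries, so these are printed forms and not measured mature ends. The miR164 and miR396 entries are shown because the miR164 family and the entry gma-miR396h separated the organ classes within each species, while the other entries printed here overlapped between classes.
bra-miR164e-5p, C. chinense fruit: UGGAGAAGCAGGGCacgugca
bra-miR164e-5p, C. frutescens flower: UGGAGAAGCAGGGCgcgugca
bra-miR164e-5p, C. chinense leaf: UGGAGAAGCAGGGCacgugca
sly-miR164a-3p, C. frutescens fruit: uCAUGUGCCUGUCUUCCCCAUC
gma-miR396h, C. chinense flower: CUCCACAGCUUUCUUGAACUGc
gma-miR396h, C. frutescens flower: CUCCACAGCUUUCUUGAACUGa
gma-miR396e, C. chinense stem: UUCCACAGCUUUCUUGAACUGc
pta-miR396, C. frutescens fruit: UUCCACAGCUUUCUUGAACUUcuu
ath-miR396a-3p, C. frutescens fruit: uuuugggGUUCAAUAAAGCUGUGGGAAG
With positions counted from 1 at the 5′ end, gma-miR396e differed from pta-miR396 by U21G over the shared 21 bases, and gma-miR396h differed from gma-miR396e by U1C. The 3 entries had the same bases 2 to 8, UCCACAG, the seed region. The printed bra-miR164e-5p of C. frutescens flower differed from that of C. chinense fruit by A15G, outside the seed region GGAGAAG.

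The next set is shown for families with most of their reads in fruit, and for families with lower shares in reproductive organs.
stu-miR6024-3p, C. frutescens fruit: UUUUAGCAAGAGUUGUUUUCCCa
sly-miR6022, C. frutescens fruit: cgaUGGGAGGGAGAAUAUCCAGGA
nta-miR1446, C. frutescens fruit: UGAACUCUCUCCCUCAAUGGCUgcu
gma-miR393c-3p, C. frutescens fruit: auugauCAUGCUAUCCCUUUGGACU
ata-miR393-5p, C. chinense fruit: UCCAAAGGGAUCGCAUUGAUUUu
tcc-miR530a, C. chinense leaf: UGCAUUUGCACCUGCACCUCCu
bna-miR167b, C. chinense leaf: UGAAGCUGCCAGCAUGAUCUAaacu
ath-miR167d, C. chinense leaf: UGAAGCUGCCAGCAUGAUCUGGa
gma-miR6300, C. chinense leaf: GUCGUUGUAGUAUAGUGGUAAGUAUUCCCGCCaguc
The entries bna-miR167b and ath-miR167d differed by A21G and shared the seed region GAAGCUG.

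The libraries held between 412734 and 1079538 listed conserved reads in the reproductive class and between 246508 and 1412110 in the vegetative class, so 1 read was worth from 0.708 to 4.06 RPM (reads in every 1000000 listed conserved reads). The C. frutescens fruit library stood apart, with 1008 families listed against 258 to 530 in the other 7 libraries. For several families the fitted value is also given without it. Others moved as well. The fitted log2 fold change of organ class went from 1.36 to -3.32 without it for miR6023. It went from 0.75 to -1.38 for miR170 and from 0.20 to -1.40 for miR6026. Only miRNAs are listed in the sheets, so the tissue labels could not be checked against marker genes of each tissue. In bulk tissue, fewer cells of a type and less RNA per cell cannot be told apart.

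miR166 was the main family of both organ classes. It held 93.9% and 90.6% of the listed reads in flower and fruit of C. chinense and 42.5% and 60.5% in flower and fruit of C. frutescens. Vegetative values were 63.7% and 89.1% in leaf and stem of C. chinense and 66.8% and 76.6% in leaf and stem of C. frutescens. The classes overlapped, with the highest and the lowest share both in flowers. Mean log2 shares differed by -0.10 (SD 0.54 for reproductive and 0.22 for vegetative libraries, n = 4 each), with p = 0.667 in a two-sided exact permutation test that exchanged organ classes within species. This test has 36 arrangements and cannot give a p below 0.0556. Without the C. frutescens flower library the difference was 0.13, with the opposite sign.

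Because miR166 filled a different part of each library, the other families were also described as shares of the remaining reads. miR482 then held 67.4% and 65.5% in flower and fruit of C. chinense and 35.97% and 34.5% in those of C. frutescens. In leaf and stem it held 31.6% and 62.4% in C. chinense, with 41.5% and 37.8% in C. frutescens. The reproductive organs of C. chinense and its stem were thus alike in this share, and the classes overlapped. The effective number of families, which is the exponential of the Shannon entropy of the shares, was 1.38, 1.58, 4.54 and 4.78 in the reproductive libraries and 3.48, 1.66, 3.39 and 2.61 in the vegetative ones. It did not differ beyond the spread of the libraries (exact permutation p = 0.833), and neither did the number of families listed (exact permutation p = 0.944).

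**Figure D1:**
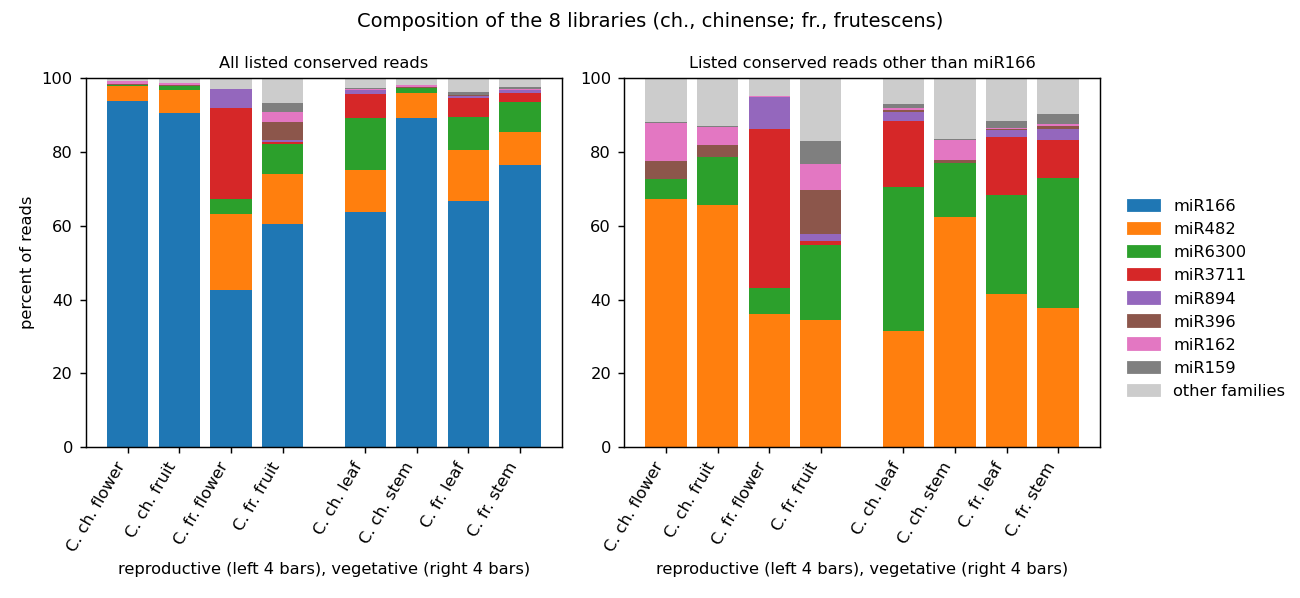
Percent of listed conserved reads per library (left) and of the reads other than miR166 (right), with reproductive libraries in the left 4 bars of each panel and vegetative libraries in the right 4. miR166 ranged from 42.5% to 93.9% in reproductive libraries and from 63.7% to 89.1% in vegetative ones, and miR6300 (green) was lower in flower and fruit than in leaf and stem of the same species.

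No family passed the test of organ class. The quasi-likelihood test of edgeR, with species as block and Benjamini-Hochberg adjustment over the 71 families, called 0 of them at an adjusted p under 0.05 (0%), and the lowest adjusted p was 0.298. At an unadjusted p under 0.05 it held 7 families (9.86%), of which 6 were higher in reproductive organs (8.45%) and 1 was lower (1.41%). DESeq2 with the same design called 3 families (4.23%), all higher in reproductive organs, namely miR164, miR7997 and miR6024, with adjusted p-values of 0.00359, 0.0193 and 0.0263. The limma-voom test called 0, with 4 families at an unadjusted p under 0.05. With TMM scaling, 46 of the 71 fitted log2 fold changes were positive (64.8%) and their median was 0.31. Scaled by total listed reads, 33 were positive (46.5%) and the median was -0.10, so the sign of a value near these medians depends on the scaling.

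miR164 was higher in the reproductive libraries of both species. Its level was 95.4 and 181 RPM in flower and fruit of C. chinense and 315 and 964 RPM in flower and fruit of C. frutescens. Leaf and stem had 46.8 and 43.2 RPM in C. chinense, with 48.7 and 109 RPM in C. frutescens. Every reproductive library was above both vegetative libraries of its species, and miR164 was the only family of the 71 with this pattern (1.41%). Separation within species in either direction was seen for 5.63% of families. Exchanging organ classes within species gives it in a share of 0.0556 of the 36 arrangements. The pattern alone therefore does not set miR164 apart. The counts behind it were small, at 103, 111, 130 and 904 reads in the reproductive libraries and 38, 61, 12 and 124 in leaf and stem of C. chinense and leaf and stem of C. frutescens. The fitted log2 fold change was 2.49 ± 0.87 (SE), with an unadjusted p of 0.0164 and an adjusted p of 0.298 by edgeR with Benjamini-Hochberg adjustment. It lay 2.17 above the median of all families. Leaving out any 1 library gave values between 2.06 and 2.75.

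Both arms of the miR164 hairpin were listed. In C. frutescens fruit, 82.6% of the miR164 reads were under 3p names, mostly sly-miR164a-3p and ath-miR164b-3p, whose shares were 399 and 392 RPM there. In the other 7 libraries 3p names held between 8.11% and 29.5%. The entries other than 3p, summed, had 79.7 and 166 RPM in flower and fruit of C. chinense and 267 and 167 RPM in those of C. frutescens. The leaf and stem values were 34.5 and 30.5 RPM in C. chinense, with 36.5 and 81.2 RPM in C. frutescens. Thus these entries averaged 170 ± 76 RPM in reproductive and 45.7 ± 24 RPM in vegetative libraries (SD, n = 4 each), and within each species the reproductive libraries were above the vegetative ones also without the 3p reads. The entry bra-miR164e-5p alone overlapped between classes, at 74.1, 165, 155 and 19.2 RPM in the reproductive libraries against 24.6 and 28.3 RPM in leaf and stem of C. chinense and 32.5 and 38.0 RPM in leaf and stem of C. frutescens. Its share in C. frutescens fruit was the lowest of all. The sum was chosen after its values were seen, so the difference is given with no test. As a share of reads other than miR166, miR164 was also higher in the reproductive libraries within each species, at 1556, 1924, 548 and 2443 RPM of those reads against 129 and 398 in leaf and stem of C. chinense and 147 and 467 in leaf and stem of C. frutescens.

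**Figure D2:**
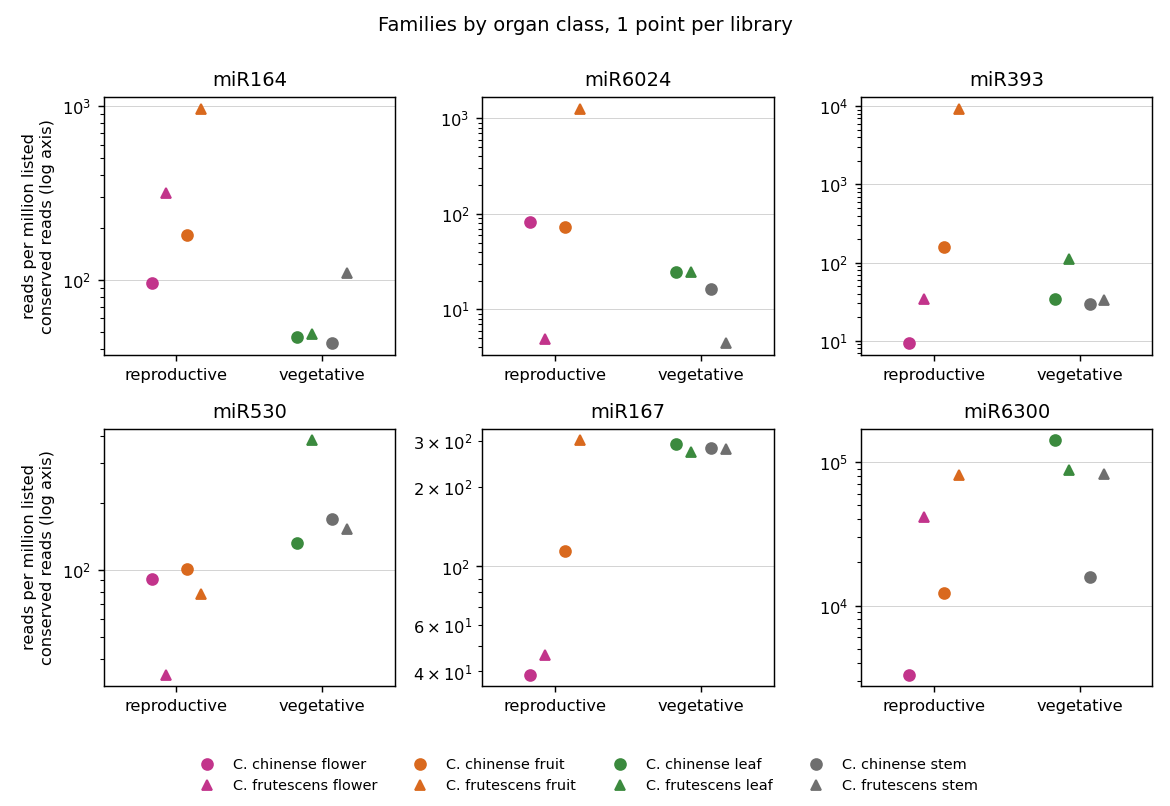
Share of 6 families in each of the 8 libraries, in RPM on a log axis, with reproductive libraries left and vegetative libraries right. miR164 lay between 95.4 and 964 in flowers and fruits and between 43.2 and 109 in leaves and stems, miR530 lay lower in all flowers and fruits than in any leaf or stem, and C. frutescens fruit was the highest library for miR6024 and miR393.

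The miR396 family overlapped between classes, while 1 of its entries did not. How reads were assigned to entries that differ by single bases is not given in the sources used here, and its part in the split between entries was not tested. The family had 2911 and 3093 RPM in flower and fruit of C. chinense and 1168 and 47607 RPM in those of C. frutescens, against 1986 and 895 RPM in leaf and stem of C. chinense and 1152 and 2007 RPM in those of C. frutescens. Flower of C. frutescens lay between the leaf and the stem of that species, and the fruit library was far above all others. The fitted log2 fold change was 2.54 ± 1.21 (SE) with an adjusted p of 0.476 by edgeR with Benjamini-Hochberg adjustment, and 1.10 without the C. frutescens fruit library.

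Within the family, gma-miR396h was the only entry, of 151 with 10 or more reads in 2 or more libraries, that was higher in the reproductive libraries of each species (0.662%). That share is no larger than exchanging organ classes within species would give. The entry gma-miR396h had 2298, 1936, 952 and 3145 RPM in C. chinense flower and fruit and C. frutescens flower and fruit. Leaf and stem had 430 and 0 RPM in C. chinense, with 231 and 556 RPM in C. frutescens. The 0 in C. chinense stem stands beside 562 reads of gma-miR396e, which was not listed in C. frutescens flower. Added together, the pair had 2415, 2251, 952 and 3407 RPM in the reproductive libraries and 535, 398, 316 and 631 RPM in leaf and stem of C. chinense and leaf and stem of C. frutescens. The mean was 2256 ± 1008 RPM in reproductive and 470 ± 140 RPM in vegetative libraries (SD, n = 4 each), with no overlap between the classes. The pair was chosen after its values were seen, so the difference is given with no test.

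The pair also filled a larger part of the family in most reproductive libraries. It made up 83.0% and 72.8% of miR396 reads in flower and fruit of C. chinense and 81.5% in flower of C. frutescens, but 7.16% in fruit of C. frutescens. Leaves and stems held 26.9% and 44.5% in C. chinense, with 27.5% and 31.4% in C. frutescens. The C. frutescens fruit library held 25901 reads of pta-miR396 and 11210 reads of ath-miR396a-3p, the other arm of the hairpin, against at most 1190 and 61 in any other library. Elsewhere pta-miR396 had 282, 582 and 109 RPM in C. chinense flower, C. chinense fruit and C. frutescens flower, within or below the vegetative range of 387 to 1050.5 RPM. As a share of reads other than miR166, the gma pair kept its order in C. chinense, while C. frutescens flower, at 1656 RPM of those reads, lay between leaf at 954 and stem at 2693.

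**Figure D3:**
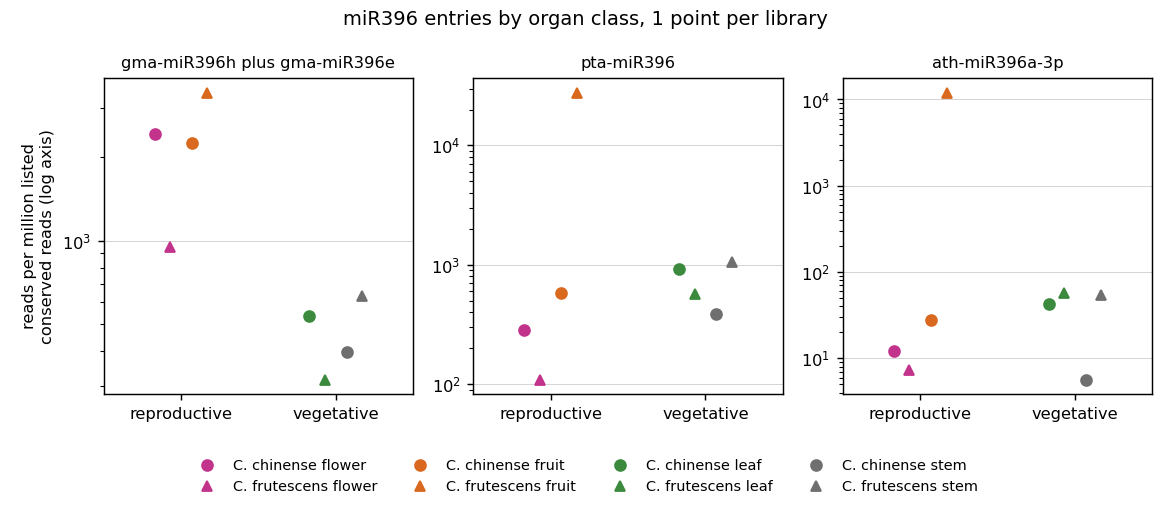
Share of 3 miR396 entries or sums in each library, in RPM on a log axis, with reproductive libraries left and vegetative libraries right. The summed gma entries lay between 952 and 3407 in flowers and fruits and between 316 and 631 in leaves and stems, whereas pta-miR396 and ath-miR396a-3p overlapped between classes and had their highest value in C. frutescens fruit.

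Other families of organ development gave values on both sides of 0. Of the 14 tested members of this list, 0 passed the edgeR test, 10 had a positive fitted log2 fold change and 4 a negative one, with a median of 0.46 beside 0.31 for all 71 families. miR160, which acts on auxin response factors, had 281, 1094, 1798 and 1176 RPM in C. chinense flower and fruit and C. frutescens flower and fruit. Its vegetative values were 501 and 1192 RPM in leaf and stem of C. chinense and 828 and 636 RPM in leaf and stem of C. frutescens. Both reproductive libraries of C. frutescens were above its vegetative ones, while the classes overlapped in C. chinense. miR159, which acts on GAMYB genes, had 98.2, 171 and 545 RPM in C. chinense flower, C. chinense fruit and C. frutescens flower and 24658 RPM in C. frutescens fruit, against 4018 and 216 RPM in leaf and stem of C. chinense and 6977 and 6033 RPM in leaf and stem of C. frutescens. Its low values thus included C. chinense stem beside 3 of the 4 reproductive libraries.

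The families of phase change and flowering also split. Of the 4 tested members, 2 had positive and 2 negative fitted values, with a median of -0.14. miR156, which holds plants in the juvenile phase through SPL genes, had 65.8 and 1345 RPM in flower and fruit of C. chinense and 46.0 and 322 RPM in flower and fruit of C. frutescens. In leaf and stem it had 41.9 and 150 RPM in C. chinense, with 40.6 and 386 RPM in C. frutescens. Flowers were thus nearer to leaf than to stem in both species, and the highest library was C. chinense fruit. miR172, which acts on AP2-like genes and opposes miR156 in phase change, stayed between 11.4 and 55.5 RPM in reproductive and between 16.2 and 59.1 RPM in vegetative libraries. miR319, which acts on TCP genes, had 256 and 1490 RPM in flowers of C. chinense and C. frutescens and 27.7 and 528 RPM in their fruits, against 41.9 and 154 RPM in leaf and stem of C. chinense and 52.7 and 2592 RPM in leaf and stem of C. frutescens. Its highest vegetative library was C. frutescens stem.

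Among the 4 tested families of auxin signalling, 2 had positive and 2 negative fitted values, with a median of -0.13 and 0 calls. miR393, which acts on the TIR1 and AFB auxin receptors, had 9.26 and 156 RPM in flower and fruit of C. chinense and 33.9 and 9275 RPM in those of C. frutescens. Leaf and stem had 34.5 and 29.7 RPM in C. chinense, with 110 and 33.5 RPM in C. frutescens. Both fruits were above all vegetative libraries and both flowers were not. The fitted log2 fold change of the class was 3.72 ± 1.82 (SE) with an adjusted p of 0.476 by edgeR with Benjamini-Hochberg adjustment, and 0.72 without the C. frutescens fruit library. In that library 99.6% of miR393 reads were under 3p names, and gma-miR393c-3p alone had 8277 reads.

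miR167 pointed the other way. It had 38.9 and 114 RPM in flower and fruit of C. chinense and 46.0 and 301 RPM in flower and fruit of C. frutescens. The 4 vegetative libraries were close together, at 291, 282, 272 and 278 RPM in leaf and stem of C. chinense and leaf and stem of C. frutescens. The reproductive mean was 125 ± 122 RPM and the vegetative mean 281 ± 7.9 RPM (SD, n = 4 each), with a fitted log2 fold change of -1.18 and an adjusted p of 0.775 by edgeR with Benjamini-Hochberg adjustment. Only C. frutescens fruit lay above the vegetative range. miR390, which starts the tasiRNA pathway that acts on auxin response factors, had 150, 271, 124 and 830 RPM in the reproductive libraries and 209, 1134, 312 and 727 RPM in leaf and stem of C. chinense and leaf and stem of C. frutescens, and its fitted value was -1.07. The entry ath-miR167d was 1 of 4 entries of the 151 with lower shares in the reproductive libraries of each species (2.65%). It had 1, 0, 1 and 8 reads in the reproductive libraries and 108 and 3 in leaf and stem of C. chinense and 29 and 23 in leaf and stem of C. frutescens, so leaves held most of it.

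The immune receptor group had a larger median fitted value for fruit than for flower, though not in every member. Of its 9 tested members, 0 passed the edgeR test, 8 had a positive fitted log2 fold change for the class, and the median was 0.47. For fruit against the mean of leaf and stem the median was 2.10, beside 0.17 for all 71 families. For flower against the same libraries it was -0.30, beside 0.38 for all 71. The other order was seen for 3 members, miR482 with 1.18 in flower and -0.13 in fruit, miR5300 with 0.74 in flower and 0.17 in fruit, and miR2118 with -0.40 in flower and -1.82 in fruit. These contrasts share the leaf and stem libraries, and the difference between flower and fruit was not tested. miR6024 had 81.5 and 73.3 RPM in flower and fruit of C. chinense and 4.85 and 1259.6 RPM in those of C. frutescens, against 24.6 and 16.3 RPM in leaf and stem of C. chinense and 24.3 and 4.41 RPM in those of C. frutescens. C. frutescens flower, with 2 reads, lay between the leaf and the stem of its species, and the other 3 reproductive libraries were above all vegetative ones. The fitted log2 fold change was 3.82 ± 1.34 (SE) with an adjusted p of 0.298 by edgeR with Benjamini-Hochberg adjustment, and 1.46 without C. frutescens fruit.

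Other members of the group did not all have their highest share in the same library. The entry nta-miR6025a had 394 RPM in C. chinense fruit and 2.13 RPM in C. frutescens fruit, beside 207 RPM in C. frutescens stem. The entry sly-miR6026 had 47.3 and 156 RPM in fruit of C. chinense and C. frutescens, beside 105 RPM in C. chinense stem. miR6022 had 36.1, 27.7, 21.8 and 574 RPM in C. chinense flower and fruit and C. frutescens flower and fruit. In leaf and stem it had 22.2 and 12.7 RPM in C. chinense, with 48.7 and 27.4 RPM in C. frutescens. Its fitted log2 fold change was 2.06 ± 0.83 (SE), with an adjusted p of 0.328 by edgeR, and 0.88 with an adjusted p of 0.701 without C. frutescens fruit. miR6023 had 3514 reads in C. frutescens fruit and at most 4 in the other 3 reproductive libraries, beside 123 in C. chinense leaf and at most 14 in the other 3 vegetative ones. miR6027 likewise had its highest share in C. frutescens fruit, at 3990 RPM against a range of 178 to 1284 RPM in the other 7 libraries. miR5300 varied less, from 551 to 1484 RPM in reproductive and from 504 to 1485 RPM in vegetative libraries. Without the C. frutescens fruit library, 5 of the 9 members had positive fitted values and the median was 0.35. The median was -0.01 for the 64 families that still passed the read filter.

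Families that act on the small RNA pathway itself also had their high values in C. frutescens fruit. miR162, which acts on DICER-LIKE1, had 6433 and 4674 RPM in flower and fruit of C. chinense and 303 and 27796 RPM in those of C. frutescens, against 1153 and 6075 RPM in leaf and stem of C. chinense and 471 and 1612 RPM in those of C. frutescens. miR403, which acts on AGO2, had 3291 RPM in C. frutescens fruit and between 14.5 and 164 RPM in the other 7 libraries, and its fitted value was 2.19, or -0.35 without C. frutescens fruit. miR168, which acts on AGO1, had 331, 618, 3671 and 10605 RPM in C. chinense flower and fruit and C. frutescens flower and fruit. Its vegetative values were 6106 and 350 RPM in leaf and stem of C. chinense and 6913 and 4138 RPM in leaf and stem of C. frutescens. The median fitted value of the 3 families was 1.84, and -0.35 without that fruit library. None of the 3 passed the edgeR test.

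The copper families, which act on laccases, copper superoxide dismutases and plantacyanins, had a median fitted value of 0.23 over 3 members, with 2 positive. miR397 had 0, 7, 32 and 83 reads in C. chinense flower and fruit and C. frutescens flower and fruit, and 7 and 1 reads in leaf and stem of C. chinense and 0 and 16 in leaf and stem of C. frutescens. Both C. frutescens reproductive libraries were thus above its vegetative ones. miR398 had 39.8 and 169.5 RPM in flower and fruit of C. chinense and 957 and 9922 RPM in flower and fruit of C. frutescens, against 472 and 69.4 RPM in leaf and stem of C. chinense and 892 and 3151 RPM in leaf and stem of C. frutescens. Both classes overlapped in each species. miR395 and miR399, which respond to sulfate and phosphate supply, had between 2 and 51 reads in any reproductive and between 1 and 17 reads in any vegetative library, with a median fitted value of 0.57. miR408, the third copper family, had a fitted value of -0.40, and miR4376, known to act on a calcium ATPase in tomato, one of -0.71.

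**Figure D4:**
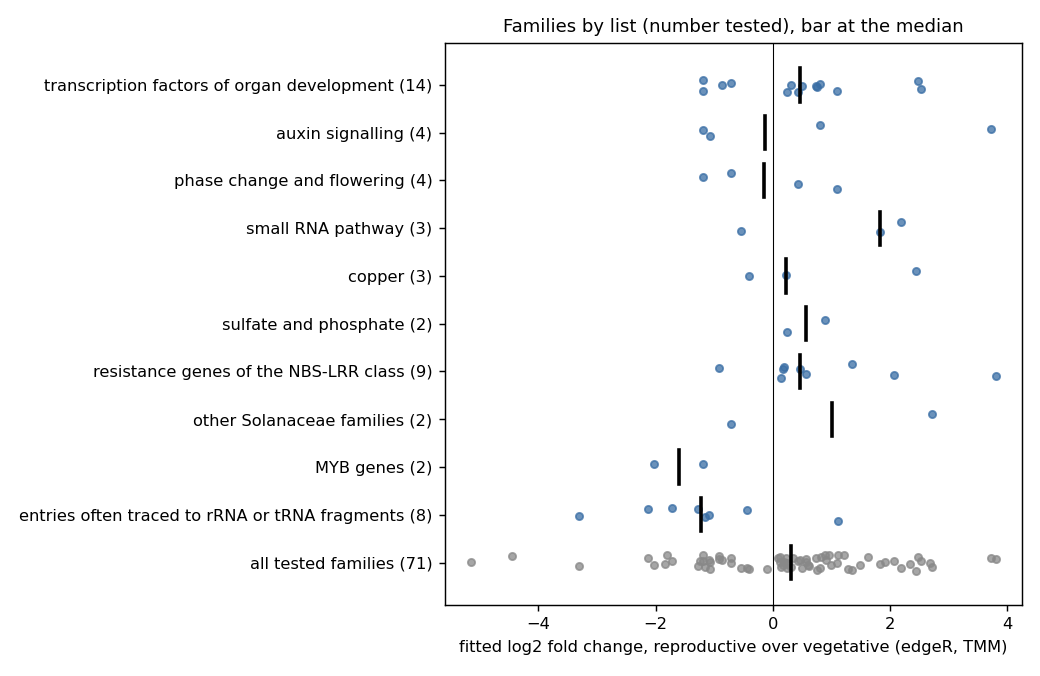
Fitted log2 fold change of reproductive over vegetative libraries for each tested family (points), by list, with the number tested in parentheses and a bar at the median. Medians ranged from -1.61 for the 2 MYB families to 1.84 for the 3 families of the small RNA pathway, beside 0.31 for all 71 families, and no family passed the test.

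A few low-count families also had large positive fitted values. miR7997 had 31, 12, 3 and 18 reads in C. chinense flower and fruit and C. frutescens flower and fruit, and 3 and 4 reads in leaf and stem of C. chinense and 2 each in leaf and stem of C. frutescens. Its fitted log2 fold change of 2.69 ± 0.81 (SE) had the lowest unadjusted p of all families, 0.00759, with an adjusted p of 0.298 by edgeR. By share, C. frutescens flower at 7.27 RPM lay below the leaf of that species at 8.11 RPM, so the classes overlapped. miR1446 had 0.926 and 32.6 RPM in flower and fruit of C. chinense and 9.69 and 122 RPM in those of C. frutescens, against 6.16 and 0.708 RPM in leaf and stem of C. chinense and 8.11 and 10.6 RPM in those of C. frutescens. Both fruits were above the vegetative libraries of their species, and the fitted value was 2.73, or 1.92 without C. frutescens fruit. miR1511 had 56 reads in each reproductive library of C. chinense and between 4 and 11 in every other library, and its fitted value was 2.35 with an adjusted p of 0.328 by edgeR.

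Lower shares in the reproductive libraries of each species were seen for 3 families, miR6300, miR530 and miR7121 (4.23%). With miR164, 4 families were thus separated in either direction (5.63%). Exchanging organ classes within species separates a family in this way in a share of 0.0556 of the 36 arrangements, close to the share seen. miR530 had 90.8 and 101 RPM in flower and fruit of C. chinense and 33.9 and 77.9 RPM in flower and fruit of C. frutescens. Vegetative levels were 132 and 169 RPM in C. chinense, with 381 and 152 RPM in C. frutescens. It was the only family of the 71 whose 4 reproductive shares all lay on one side of its 4 vegetative shares (1.41%). The reproductive mean was 75.9 ± 30 RPM and the vegetative mean 208 ± 116 RPM (SD, n = 4 each). The fitted log2 fold change was -1.08 ± 0.78 (SE) with an adjusted p of 0.775 by edgeR with Benjamini-Hochberg adjustment. Among reads other than miR166, miR530 overlapped between classes in C. chinense, at 1481 and 1075 RPM of those reads in flower and fruit and 363 and 1553 RPM in leaf and stem.

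miR6300 was the third most abundant family. It held 0.330% and 1.23% of reads in flower and fruit of C. chinense and 4.14% and 8.07% in flower and fruit of C. frutescens, against 14.2% and 1.58% in leaf and stem of C. chinense and 8.87% and 8.28% in leaf and stem of C. frutescens. The gaps between C. chinense fruit and stem and between C. frutescens fruit and stem were small beside the other differences. This was 1 of 2 families, with miR164, that were also separated within each species among reads other than miR166 (2.86%). That share is below the 0.0556 given by exchanging organ classes within species. The printed gma-miR6300 runs to 36 nt, and tRNA or rRNA fragments are a common source of reads under this name. The mean log2 shares of the classes differed by -1.73, with an exact permutation p of 0.0556, the smallest the test can give. miR7121 had 2, 2, 2 and 5 reads in the reproductive libraries and 21, 5, 4 and 11 in leaf and stem of C. chinense and leaf and stem of C. frutescens, too few for a firm order.

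Names that commonly hold pieces of rRNA or tRNA had mostly negative fitted values. Of the 8 tested, 7 had a negative fitted log2 fold change with TMM scaling and all 8 with total reads, and the medians were -1.22 and -1.65. Among all 71 families, 25 were negative with TMM scaling and 38 with total reads. The mean log2 share was lower in both species for 5 of the 8. The SE was 8.90 for miR894 and 31.5 for miR2916, so these 2 values say little. None passed the edgeR test. miR8175, for one, had 909, 1056, 4785 and 788 RPM in C. chinense flower and fruit and C. frutescens flower and fruit, below the 3372 and 2369 RPM in leaf and stem of C. chinense, and on both sides of the stem of C. frutescens at 1950 RPM and below its leaf at 10892 RPM. Together the 8 held 0.505% and 1.48% of reads in flower and fruit of C. chinense and 9.88% and 9.07% in flower and fruit of C. frutescens. Leaf and stem had 15.8% and 2.60% in C. chinense, with 10.8% and 9.36% in C. frutescens. Flower of C. frutescens therefore lay between the leaf and the stem of that species. Among reads other than miR166 they held 8.23%, 15.7%, 17.2% and 23.0% in the reproductive libraries, against 43.6% and 24.0% in leaf and stem of C. chinense and 32.5% and 39.9% in leaf and stem of C. frutescens. On that scale all 4 reproductive libraries were below all 4 vegetative ones, by a small gap between C. frutescens fruit and C. chinense stem. Outside C. frutescens flower, most of each sum was miR6300. Of the reads other than miR166, miR6300 alone held 5.38%, 13.1%, 7.20% and 20.4% in the reproductive libraries. In leaf and stem it held 39.1% and 14.6% in C. chinense, with 26.7% and 35.3% in C. frutescens. The part of RNA quality in the difference of the sums was not tested. The MYB families miR159 and miR858 both had negative fitted values. miR858 had 13.9, 9.78 and 4.85 RPM in C. chinense flower, C. chinense fruit and C. frutescens flower and 1615 RPM in C. frutescens fruit, against 1240.4 and 20.5 RPM in leaf and stem of C. chinense and 523 and 370 RPM in leaf and stem of C. frutescens. Without C. frutescens fruit, the fitted values were -2.93 for miR159 and -4.94 for miR858, against -1.19 and -2.02 with it.

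The remaining large negative values rested on a few libraries. miR5723 had 0, 0, 0 and 2 reads in the reproductive libraries and 1 and 12 in leaf and stem of C. chinense and 0 and 75 in leaf and stem of C. frutescens, so the stems held nearly all of it. Its unadjusted p was 0.0131 and its adjusted p 0.298 by edgeR. miR3711 had 1 read in each reproductive library of C. chinense, 102023 in C. frutescens flower and 4078 in C. frutescens fruit, against 52798 and 4 reads in leaf and stem of C. chinense and 12915 and 26942 in leaf and stem of C. frutescens. Its fitted log2 fold change of -4.45 had a SE of 12.4. miR894 followed the same libraries, with 1 read in each reproductive library of C. chinense and 4 in its stem, beside at least 1552 in each of the other 5. The values for miR5139, miR6483 and miR7767 were -2.13, -1.83 and -1.81, with adjusted p-values of at least 0.775 by edgeR.

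Over the families as a whole, the direction of the organ class difference often differed between the species. Directions were taken about 0, while the median difference was -0.48 in C. chinense and -0.027 in C. frutescens. The mean log2 share differed in the same direction in C. chinense and C. frutescens for 39 of the 71 families (54.9%). It was higher in reproductive organs of both species for 15 (21.1%) and lower in both for 24 (33.8%). Across families, which share libraries and are not independent, Spearman's rho between the species was 0.23 and Pearson's r was 0.07, as a description. The 41 families with a mean share of at least 0.01% gave 23 in the same direction, or 56.1%.

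**Figure D5:**
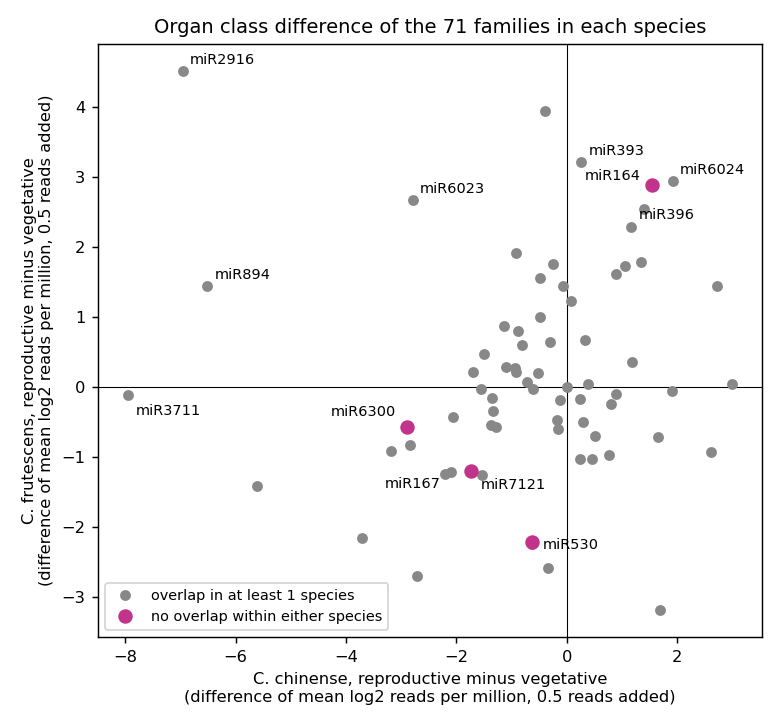
Difference in mean log2 RPM (0.5 reads added) between reproductive and vegetative libraries of C. chinense (x axis) and of C. frutescens (y axis), 1 point for each of the 71 families. The coloured points are the 4 families whose shares did not overlap within either species, miR164 at upper right and miR6300, miR530 and miR7121 at lower left, and 39 of the 71 points lie in the quadrants of equal sign.

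The test of the difference between species, the interaction of organ class and species in edgeR with Benjamini-Hochberg adjustment, called 0 of 71 families (0%) and held 6 at an unadjusted p under 0.05 (8.45%). The lowest adjusted p was 0.0769, for miR2916 and miR3711, followed by miR894 at 0.0840. miR2916 had 2, 1, 1 and 1816 reads in C. chinense flower and fruit and C. frutescens flower and fruit, and 9 and 10490 reads in leaf and stem of C. chinense and 1 and 2 in leaf and stem of C. frutescens. Its value therefore came from C. frutescens fruit and C. chinense stem. The fitted interaction values of 19.11, 16.53 and 13.74 on the log2 scale for miR2916, miR3711 and miR894 rest on libraries with a few reads and are no measure of size. In the other direction the lowest p-values belonged to miR1863 at -4.30, miR6025 at -5.63 and miR6483 at -3.54, with adjusted p-values of at least 0.568. miR6025 had 5, 242, 8 and 10 reads in C. chinense flower and fruit and C. frutescens flower and fruit, and 87 and 2 in leaf and stem of C. chinense and 22 and 236 in leaf and stem of C. frutescens.

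Flower and fruit were also each compared with the mean of leaf and stem, in 1 edgeR fit with species as block. The flower contrast called 0 families (0%) and held 7 at an unadjusted p under 0.05 (9.86%), with a lowest adjusted p of 0.421. The fruit contrast called 0 (0%) and held 12 (16.9%), with a lowest adjusted p of 0.126. Both contrasts share the leaf and stem libraries, so their values are given side by side only. For miR164 the fitted log2 fold change was 2.59 ± 0.92 in flower and 2.79 ± 0.90 in fruit (SE). For miR7997 it was 3.01 ± 1.06 in flower and 2.38 ± 1.02 in fruit. Other families, such as miR1511 at 2.47 ± 1.10 in flower and 2.20 ± 1.21 in fruit, also had values of similar size in both organs. By contrast, miR6024 had 1.95 ± 1.24 in flower and 5.24 ± 1.38 in fruit, miR393 had -0.58 ± 1.30 in flower and 5.08 ± 1.38 in fruit, and miR1446 had 0.47 ± 1.19 in flower and 3.60 ± 1.02 in fruit. miR3630 had the lowest unadjusted p of the flower contrast, 0.00672, with fitted values of 2.75 ± 0.81 in flower and -0.26 ± 0.88 in fruit, with 104 and 74 reads in flowers of C. chinense and C. frutescens and 12 and 45 in their fruits, beside 18 and 23 reads in leaf and stem of C. chinense and 24 and 60 in leaf and stem of C. frutescens.

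Low-count families differed between classes mainly by the C. frutescens fruit library. At least 1 read was listed for 1150 families in the reproductive and for 869 in the vegetative class, and 683 were common to both. Of the 467 listed in reproductive libraries only, 331 were in C. frutescens fruit alone, and the most abundant, miR5830, had 10 reads in all. The 186 listed in vegetative libraries only had at most 11 reads, for miR6105. No family with more reads was thus confined to either organ class in these libraries, and a count of 0 allows up to 2.78, 4.89, 7.27 and 3.20 RPM in C. chinense flower and fruit and C. frutescens flower and fruit. These limits are 3 reads of each total and cover counting error only.

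The predicted miRNAs, a separate set of sheets, held 3225 sequences, of which 2366 were listed in reproductive libraries only, 779 in vegetative libraries only and 80 in both. Most were in 1 library, since 119 were listed in 2 or more. Of these, 21 were in reproductive and 18 in vegetative libraries only. The sequence with the most reads among those shared by libraries was listed in both flowers and, with 1 base more, in C. frutescens fruit. It was chosen after its values were seen.
Cap-m0356-3p, C. chinense flower: AUCUUGCCGAUUCCGUCCAUACCGC
Cap-m0550-3p, C. frutescens fruit: AUCUUGCCGAUUCCGUCCAUACCGCU
Cap-m0550-5p, C. frutescens fruit: UGGUGUGGGCGGGGCGGGAAGAUA
It had 3010 reads in C. chinense flower, 1027 in C. frutescens flower and 4331 in C. frutescens fruit. It was not listed in C. chinense fruit or in any leaf or stem library. Whether those libraries held reads of it that were not listed was not examined. The partner arm, Cap-m0550-5p, had 141 reads in C. frutescens fruit and 130 in C. frutescens flower, and a shorter form had 7 in C. chinense flower. The sequence shared no run of 16 bases with any printed conserved entry, and shorter runs were not searched. Its first bases also occur within another predicted sequence, Cap-m0174-3p of C. chinense stem. That other sequence shared a run of 16 bases with the conserved entry stu-miR482b-3p in the same library. Whether Cap-m0356-3p is related to the miR482 family was not tested. With no genome used here, the place of Cap-m0356-3p in the pepper genome was not determined. As predicted reads numbered 6628, 1525, 2032 and 15250 in C. chinense flower and fruit and C. frutescens flower and fruit, against 809 and 2473 in leaf and stem of C. chinense and 674 and 2031 in leaf and stem of C. frutescens, the list of each library also varied in length.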

How the data were processed

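Small RNA was sequenced from flower, fruit, leaf and stem of C. chinense and C. frutescens, with 1 TruSeq library for each, read by an Illumina Genome Analyser II per the labels' protocols. The authors deposited raw read counts per entry in 16 sheets, 8 conserved and 8 predicted, per the file headers. For trimming, aligner and database release, the answer is not given in the sources used here. Entries absent from a sheet were set to 0 reads, and 1 line was empty in 2 conserved sheets. Printed conserved sequences run from 16 to 36 nt.

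Families were built from the miR number (Python 3.11.15; numpy 2.4.6; pandas 2.3.3). Organ class was tested by quasi-likelihood in edgeR 4.0.16 under R 4.3.3, with TMM scaling, species as block, and a minimum of 10 reads in 2 libraries per family. It left 5 residual degrees of freedom and added 5.13 prior ones, so a p-value leans partly on other families. Adjustment was by Benjamini-Hochberg, threshold 0.05, and standard errors were derived from the F statistics. The interaction and tissue fits left 4 and 3 residual degrees of freedom. Shares per library were tested by exact permutation within species with scipy 1.17.1, and log2 shares had 0.5 reads added. DESeq2 1.42.0 and limma 3.58.1 were alternatives, with other scalings, filters, units and samples. The fit was tested on simulated counts, with pass criteria applied only at a dispersion set low and not at that of these libraries. It therefore does not show the power of the test here. Plots were drawn with matplotlib 3.10.9. Reads carry no molecular identifiers, so limits from counts cover counting error only. No column was left unused. The families and lists were chosen with earlier results of these data known. Named families were the 10 of highest mean share, the 6 largest fitted values per direction among those with 1 direction in both species, those without overlap within species, up to 4 of highest share per list, and the 3 leading interaction values per direction.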

Additional observations from a re-analysis of the deposited data

Results flagged for a closer look

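A sample was marked by its gap to the nearest other library of its class, divided by the range of the class. The mark was set where this ratio exceeded Dixon's 95% critical value for 4 samples. Family shares were compared on the log2 scale. This was checked in 90 groups, and 11 values were marked. Chance marks about 1 in 20 groups. Among reproductive libraries, C. frutescens fruit was far above the others for miR858 at 1615 RPM and for miR2916 at 1937 RPM, and it listed 1008 families, with 14.1% of its reads in entries of 24 nt or shorter. C. frutescens flower was far above the others for miR8175 at 4785 RPM. Among vegetative libraries, C. chinense stem was far below the others for miR159 at 216 RPM and for miR894 and miR3711 at 2.83 RPM each. C. frutescens stem was far above the others for miR164 at 109 RPM. C. frutescens leaf was far above the others for miR393 at 109.5 RPM and for the percent of reads in entries of 24 nt or shorter, at 15.1%.

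Outside the conserved entries, the predicted sequence Cap-m0356-3p summed to 8368 reads over both flowers and C. frutescens fruit, counting the form with 1 more base, and was not listed in any vegetative library.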

How the results depend on the processing

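DESeq2 called 3 families for organ class, and every other alternative run called 0. For the interaction, leaving out single libraries gave between 0 and 2 calls, with 2 without C. frutescens fruit, 2 without C. chinense stem and 1 without C. chinense leaf. For flower it gave between 0 and 1, with miR858 called without C. frutescens fruit. For fruit it gave between 0 and 7, with miR3711 called without C. chinense flower and 7 families without C. chinense fruit, which leaves 1 fruit library, assumed to vary like the other tissues. Some signs turned, and the cause was not tested. For organ class, miR393 was -0.58 without the fruit pair and miR3630 was -0.42 without the flower pair. Without species as block, miR3711, miR894 and miR5139 were 2.14, 2.45 and 0.11, and without the fruit pair 1.78, 1.93 and 0.14. Without the leaf pair, miR3711, miR894 and miR7767 were 0.78, 0.62 and 0.95. For flower, miR1446 was -0.64 by total reads. The log2 share difference of miR482 was 0.21 without miR166.

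For organ class, the range over single libraries left out crossed 0 for 37 of the 71 families, among them miR403 (-0.35 to 3.02), miR390 (-1.67 to 0.09), miR160 (-0.05 to 1.45), miR156 (-0.54 to 2.30), miR319 (-0.60 to 2.21), miR398 (-0.60 to 0.64), miR4376 (-1.80 to 0.14), miR162 (-0.054 to 3.23), miR3711 (-11.65 to 1.52), miR7767 (-3.98 to 0.23) and miR894 (-8.77 to 1.55). In flower the range did so for miR6024 (-1.27 to 3.16), miR1446 (-1.05 to 0.99) and miR393 (-1.24 to 0.46). Among log2 share differences it did so for miR166 (-0.25 to 0.13), miR482 (-0.49 to 0.28) and miR168 (-1.73 to 0.046). Differences in families listed (-121 to 114), effective families (-0.287 to 0.845) and percent of reads in short entries (-2.20 to 3.92) behaved likewise. Alternatives for the gma-miR396 pair and the miR164 entries other than 3p were chosen after seeing the data, and the pair's log2 share difference was 2.17, or 2.48 without miR166. Apart from the numbers of calls, the miR166 share and the family numbers, 748 alternative values kept their direction and side of the threshold. Another 32 changed direction and 11 fell under the threshold. As no main value was under it, keeping the same side shows little about stability. Tissues could not be paired by plant, because RNA of the replicates was pooled before library preparation, and the labels give no replicate numbers. Pooled RNA and 1 library for each tissue and species limit what small differences can show, and families with under 10 reads were not resolved at this depth.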
